A study of Mus musculus with 3 samples.

Results

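Beta cells of 2 mouse islet libraries were compared gene by gene: the library labelled SC35-KO against the one that carries the label ASF-KO. A barcode counted as a beta cell if it held at least 500 genes and 1000 unique molecular identifiers (UMIs, each standing for 1 captured transcript), had at most 20% of its UMIs from mitochondrially encoded genes, at least 25% from the insulin genes Ins1 and Ins2, and less than 2% from each of Gcg, Sst and Ppy, the glucagon, somatostatin and pancreatic polypeptide genes. By this rule 9059 beta cells were found among the 26415 barcodes of these libraries, 3921 labelled ASF-KO and 5138 labelled SC35-KO. The whole series held 36681 barcodes. The insulin share chose the cells, so insulin levels are described and not compared.

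Islets were picked by hand from pancreases of mice 9 months old, dissociated and sequenced with a droplet kit that reads the 3' ends of transcripts. The 3 genotypes, SC35-KO, ASF-KO and wild type (WT), had 1 library each. The protein SRSF1 was first called ASF, and SRSF2 was first called SC35. The labels do not say in which cells the genes were deleted, by what means, from how many mice the cells came, or of which sex these were. With 1 library a side there was no test of any difference. The genotype, the animals and the preparation of a library cannot be told apart, and the 95% intervals given cover counting error only. The series title names diabetes as the setting of both genes.

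Srsf1 and Srsf2 encode SR proteins, which bind exons of pre-mRNA and help the spliceosome choose splice sites. A beta cell makes proinsulin on ribosomes bound to the endoplasmic reticulum (ER), folds it there with chaperones and disulfide-forming enzymes, and passes it through the Golgi into granules. When unfolded protein builds up in the ER, the sensors Atf6, Ern1 (IRE1) and Eif2ak3 (PERK) start the unfolded protein response, in which the first 2 raise chaperone genes and the third acts through the factor Atf4 on amino acid and stress genes.

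A pair of barcode features differed between the libraries before any gene was compared. The beta cells labelled ASF-KO had a median of 26706 UMIs and 3417 genes per cell and those labelled SC35-KO 17395 UMIs and 2583 genes, against 22463 UMIs and 3648 genes in WT. The filter removed 40.8% of barcodes under the ASF-KO label and 16.1% under the other. The 2 libraries had 45 barcode sequences in common, of which 11 and 16 were beta cells. Insulin transcripts made up 63.8% of all beta cell UMIs under the ASF-KO label, 63.3% under the SC35-KO label and 53.6% in WT. Few cells lay near the insulin threshold: 21 and 22 cells had a share of 25% to 30%, and 39 and 31 barcodes that met the other conditions lay at 20% to 25%. Levels below (CPM) are per 1000000 UMIs, not counting those of Ins1, Ins2, Iapp and mitochondrially encoded genes, which came to 31799907 under the ASF-KO label and 26849650 under the SC35-KO label.

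Neither targeted gene was low in the library named for it. Srsf1 (chr11:88047373-88053755 in mm10, plus strand) stood at 128 CPM in cells labelled ASF-KO, 141 in cells labelled SC35-KO and 99.8 in WT. Srsf2 (chr11:116849901-116853094, minus strand) stood at 186 CPM under the ASF-KO label, 93.4 under the SC35-KO label and 72.2 in WT, a ratio of SC35-KO to ASF-KO of 0.503 (95% interval 0.480 to 0.527). Each gene was thus highest in the library named for the other gene, and in neither case below WT. Srsf2 was also lower under the SC35-KO label in the other cell classes, defined below. Its ratios there, not set against all genes of a class, were 0.542, 0.582, 0.528 and 0.722 in alpha-, delta-, gamma- and endothelial-rule cells. A 3' tag that lies outside the deleted part does not check a deletion, so the libraries are called by their labels throughout. Of 12 measured SR and Tra2 genes, 1 was at least 1.5-fold lower in cells labelled SC35-KO, Srsf2 itself, and none was as much higher. The hnRNP genes, whose products often oppose SR proteins at splice sites, held 1 gene of 24 past this fold, Pcbp2, at 368 CPM labelled ASF-KO and 790 labelled SC35-KO. Among all genes compared, 9.1% were at least 1.5-fold higher and 6.13% as much lower. Both counts are small and not far from these shares, so they are not read as a result about splicing genes.

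Across the 9677 genes with at least 10 CPM in either library, 881 (9.1%) were at least 1.5-fold higher and 593 (6.13%) at least 1.5-fold lower in cells labelled SC35-KO. The other 8203 genes (84.8%) lay between. With scaling factors from edgeR's TMM method, which moves each log2 ratio by -0.13, the split turned to 557 higher and 963 lower, so the balance between the directions depends on the scaling. The median gene had a log2 ratio of 0.05, and 90% of genes lay between 0.641 and 1.68. At 2-fold or more, 221 genes (2.28%) were higher and 126 (1.3%) lower, and at 4-fold or more 12 and 23. Beside WT, 8.25% of genes were at least 1.5-fold higher and 9.67% lower in cells labelled ASF-KO. For cells labelled SC35-KO these shares were 4.44% and 2.76%, with the same WT library in both. The chart of gene lists shows that the shares past 1.5-fold differed widely from list to list, with secretory pathway genes on the lower side and ribosomal protein and Atf4 target genes on the higher side.

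**Figure D1:**
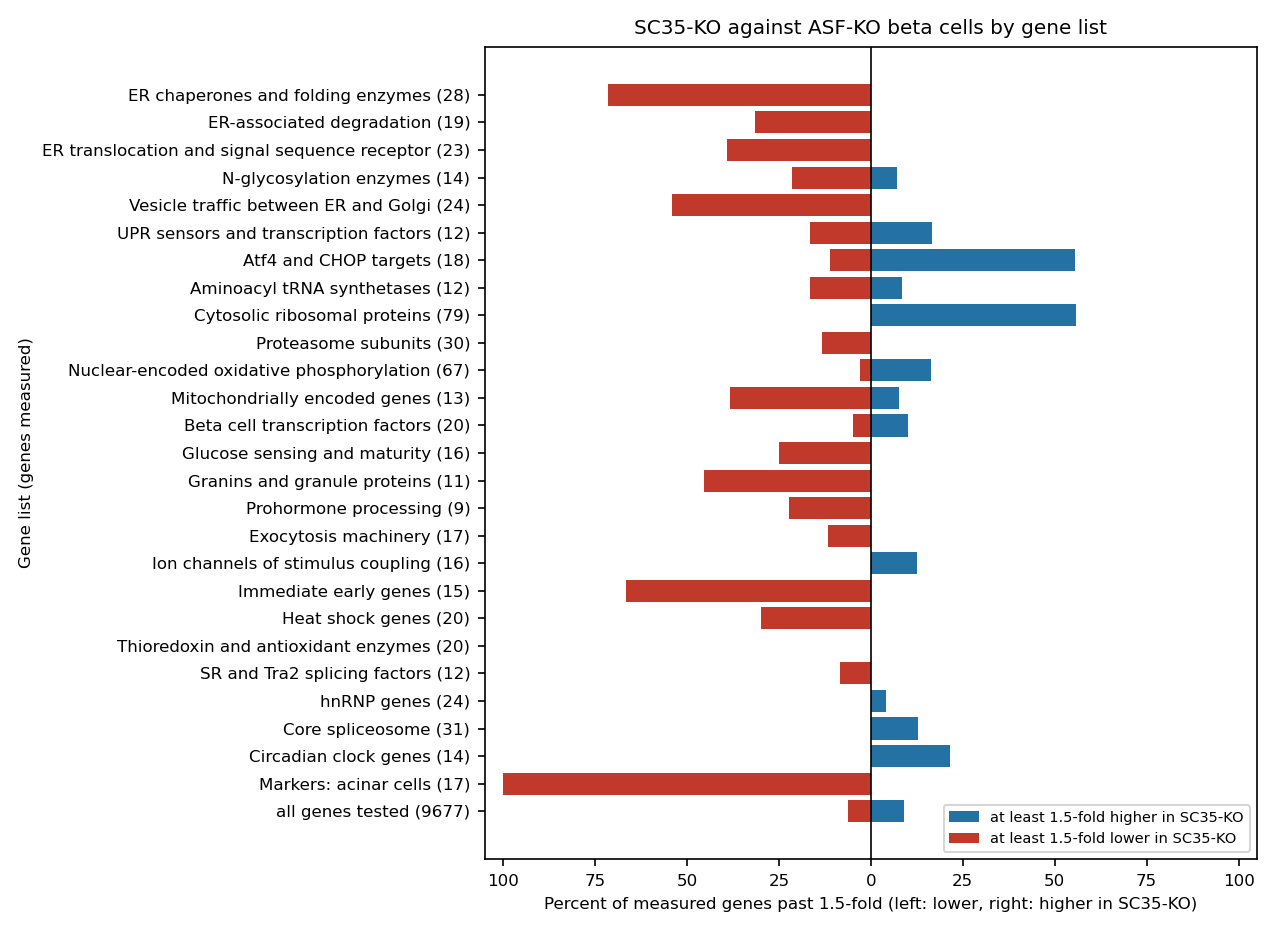
Percent of the measured genes of each list that were at least 1.5-fold higher (right, blue) or lower (left, red) in beta cells labelled SC35-KO than in those labelled ASF-KO, with the number of genes measured after each name. All 9677 genes are the last row, with 9.1% higher and 6.13% lower, and the ER chaperone row has 20 of 28 genes lower.

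ER chaperones and folding enzymes were the group of secretory genes with the lowest levels under the SC35-KO label relative to the ASF-KO label. Of 28 measured genes, 20 were at least 1.5-fold lower, none was as much higher, and the median log2 ratio was -0.87 against 0.05 for all genes. Summed over the list they made 22160 CPM in cells labelled ASF-KO, 10600 in cells labelled SC35-KO and 9880 in WT. The SC35-KO level lay close to that of WT, and the ASF-KO level above both.

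Hspa5 (chr2:34771970-34777547), which encodes BiP, the main ER chaperone of the Hsp70 family, stood at 3660 CPM labelled ASF-KO, 948 labelled SC35-KO and 1230 in WT, a ratio of 0.259 (0.256 to 0.263). Creld2, a folding factor of the ER, had 293, 71.2 and 58.4 CPM in the same order, and Sdf2l1, a partner of BiP, 598, 152 and 76.9 CPM. By the interval bound nearest to 1, these 3 genes followed 12 digestive enzyme and other exocrine genes among the 15 lowest named genes, a ranking that leaves out mitochondrial, ribosomal protein and unnamed genes and genes under 50 CPM. Hyou1, which swaps nucleotides on BiP, had 594, 169 and 177 CPM. Hsp90b1, the ER member of the Hsp90 family, had 2730, 1173 and 1171 CPM, and here the SC35-KO and WT values were nearly the same. Calr, a lectin chaperone, had 1054, 577 and 579 CPM. Among enzymes that form or shuffle disulfide bonds, Pdia6 had 1174, 413 and 337 CPM and Pdia4 309, 116 and 111 CPM. Ero1lb, the oxidase that beta cells use to make disulfides, differed less, with 1766, 1143 and 1236 CPM. The 8 members inside 1.5-fold included Canx, the membrane-bound lectin chaperone, at 684, 673 and 680 CPM, and Sil1, with the highest ratio of the list, at 73.0, 96.0 and 73.5 CPM. The plot of levels by gene shows the ASF-KO value to the right of both others for most of the list.

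**Figure D2:**
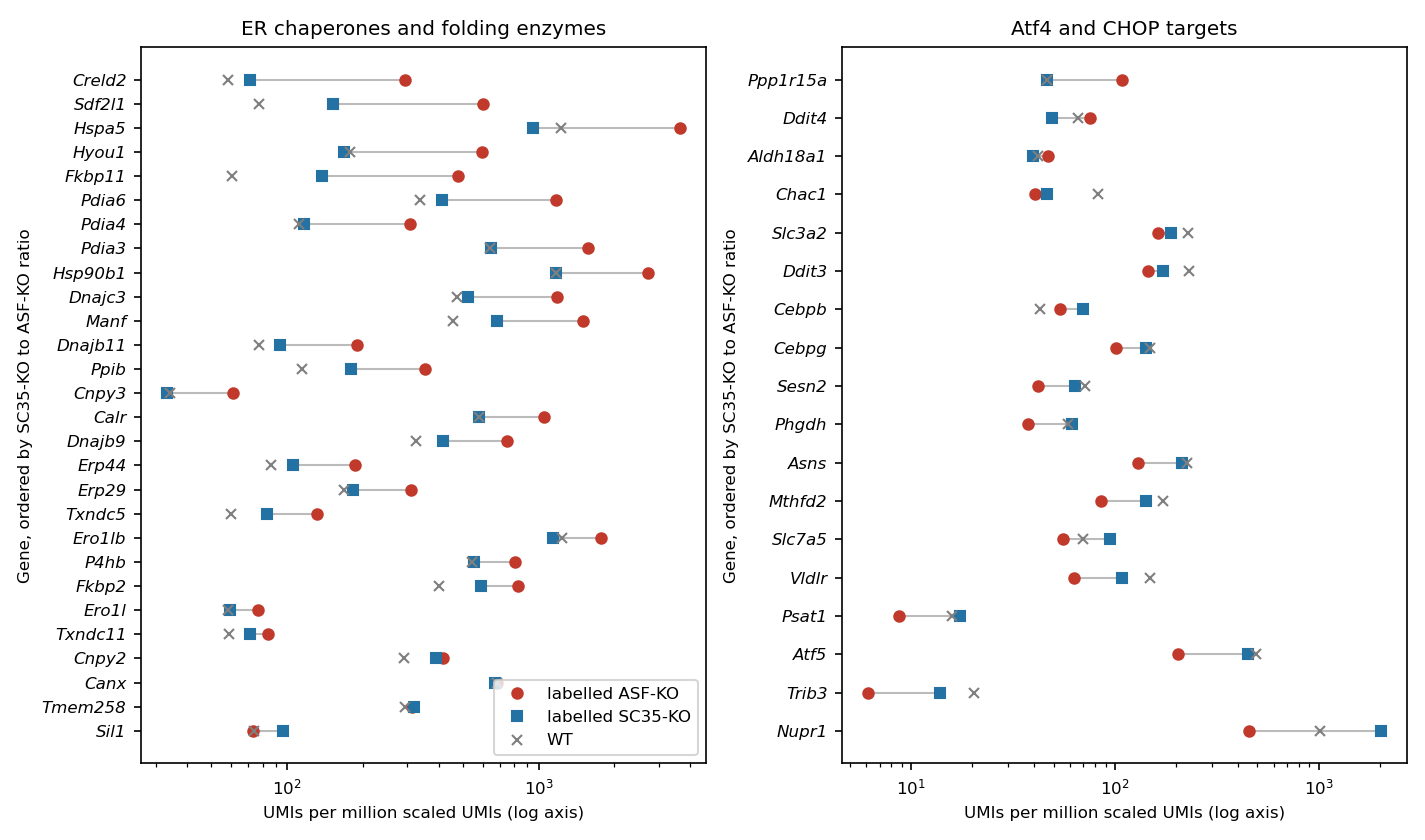
Level of each measured gene of the ER chaperone list (left) and of the Atf4 and CHOP target list (right) in beta cells, in CPM on a log axis, with red circles for cells labelled ASF-KO, blue squares for SC35-KO and grey crosses for WT. Genes are ordered by the ratio of SC35-KO to ASF-KO. Hspa5 lies at 3660, 948 and 1230, and Nupr1 at 453, 2026 and 1011.

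Promoters of several of these genes hold the ER stress element, a sequence bound by NF-Y and Atf6. It was searched as CCAAT and CCACG with 9 bases of any kind between them, on both strands, from 250 bases before to 50 after the RefSeq start (GRCm38.p6). Of 20267 genes with a promoter in the RefSeq table, 0.163% held a match. Of the 22 ER chaperone genes with a promoter there, 7 (31.8%) did. These stretches are shown because they carry the match in genes on which the comparison turns, and Canx because it holds one and hardly differed. Capitals mark the fixed letters of the match, and a match on the opposite strand reads CGTGG to ATTGG.
Hspa5, chr2:34772005-34772063, plus strand: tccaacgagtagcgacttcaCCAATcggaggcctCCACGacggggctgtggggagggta
Creld2, chr15:88819500-88819558, plus strand: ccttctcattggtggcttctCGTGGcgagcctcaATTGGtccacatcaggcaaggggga
Pdia6, chr12:17266471-17266529, plus strand: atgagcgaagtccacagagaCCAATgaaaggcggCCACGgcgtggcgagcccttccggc
Hsp90b1, chr10:86705513-86705676, minus strand: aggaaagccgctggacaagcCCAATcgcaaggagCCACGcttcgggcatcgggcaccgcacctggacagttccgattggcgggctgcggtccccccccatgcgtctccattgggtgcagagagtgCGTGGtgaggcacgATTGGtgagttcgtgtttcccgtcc
Dnajc3, chr14:118937807-118937865, plus strand: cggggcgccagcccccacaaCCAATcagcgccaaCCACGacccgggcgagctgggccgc
Calr, chr8:84847055-84847113, minus strand: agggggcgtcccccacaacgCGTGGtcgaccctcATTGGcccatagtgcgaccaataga
Derl3, chr10:75893222-75893280, plus strand: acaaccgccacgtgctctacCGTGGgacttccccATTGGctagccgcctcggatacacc
Canx, chr11:50325780-50325838, minus strand: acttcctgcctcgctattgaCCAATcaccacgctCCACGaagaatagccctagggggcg
In Hspa5 the match begins 65 bases before the start, and Hsp90b1 holds 2 matches, 107 and 212 bases before it. Among the genes compared, 13 had a match: 8 were at least 1.5-fold lower in cells labelled SC35-KO, 1 was higher and 4 lay between. Besides the 6 lower members of the chaperone list, the lower genes were Derl3, a channel component of ER-associated degradation, with 49.2 CPM labelled ASF-KO, 21.3 labelled SC35-KO and 8.37 in WT, and Alg12, a mannosyltransferase of N-glycan assembly, with 27.5, 12.8 and 15.1 CPM. Of all 473 lower genes with a promoter 1.69% had a match, and of all 664 higher ones 0.151%. These matches are descriptions of letters and not of bound sites. The chaperone list was known to be lower when the element was chosen.

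The remaining steps of the early secretory pathway followed with smaller differences. Of 24 genes of vesicle traffic between ER and Golgi, 13 were at least 1.5-fold lower in cells labelled SC35-KO and none higher, with a median log2 ratio of -0.60. Lman1, a cargo receptor for glycoproteins, had 1185 CPM labelled ASF-KO, 516 labelled SC35-KO and 533 in WT. Copb2, a subunit of the COPI coat that returns vesicles to the ER, had 494, 217 and 238 CPM. Both again had SC35-KO values beside those of WT. Of 23 genes of translocation into the ER, 9 were lower and none higher, among them Srpr, the receptor for the signal recognition particle, with 711, 339 and 303 CPM. The channel subunits Sec61b and Sec61g stayed inside 1.5-fold, at 1353 and 1232 CPM for the first and 1317 and 1307 CPM for the second. Of 19 genes of ER-associated degradation 6 were lower. Of 14 N-glycosylation genes 3 were lower and 1, Dpm3, was higher. Of 30 proteasome subunits 4 were lower under the main scaling and 11 with TMM factors, with a median log2 ratio of -0.39 and -0.52.

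The genes of the unfolded protein response itself did not move as one group. Atf6, a membrane-bound sensor and factor, had 147 CPM labelled ASF-KO, 93.9 labelled SC35-KO and 120 in WT, and its relative Atf6b 38.2, 19.9 and 19.6 CPM. Ern1 went the other way, with 87.0, 142 and 144 CPM. Xbp1, whose mRNA Ern1 splices, was level at 317, 306 and 249 CPM. The 3' tags do not tell its spliced form from the unspliced one. Atf4 mRNA stood at 417, 322 and 341 CPM, and Ddit3, the gene of CHOP, at 146, 173 and 232 CPM, all within 1.5-fold of each other between the 2 KO labels.

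Targets of Atf4 and CHOP were on the opposite side from the chaperones. Of 18 measured genes, 10 were at least 1.5-fold higher in cells labelled SC35-KO and 2 lower, with a median log2 ratio of 0.65. With TMM factors 8 were higher and the median was 0.52. Nupr1 (chr7:126623249-126630861), a small stress-induced chromatin protein, led the list with 453 CPM labelled ASF-KO, 2026 labelled SC35-KO and 1011 in WT, a ratio of 4.47 (4.39 to 4.56). WT lay between the KO labels in this gene. Atf5, a related factor, had 204, 447 and 490 CPM. Asns, which makes asparagine, had 130, 213 and 226 CPM. Trib3, a pseudokinase that dampens Akt signalling, had 6.13, 13.9 and 20.4 CPM. In Atf5, Asns and Trib3 the value labelled SC35-KO was near or below that of WT, and the one labelled ASF-KO was the lowest. The serine synthesis genes Psat1 and Phgdh had ratios of 1.99 and 1.63, the folate enzyme Mthfd2 1.67, and the amino acid transporter Slc7a5 1.72. The 2 lower genes were Ppp1r15a (GADD34), which restores translation by removing phosphate from eIF2 alpha, with 109, 46.2 and 46.6 CPM, and Ddit4, an inhibitor of mTORC1, with 75.4, 49.2 and 66.0 CPM.

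The amino acid response element, to which Atf4 binds with C/EBP partners, was searched as TGATGNAAN in the same promoter windows. It was found in 4.13% of all 20267 genes and in 7 of the 20 (35%) Atf4 and CHOP targets with a promoter. The list was chosen as targets of Atf4 and CHOP, so its higher share is a description and tests nothing. These 3 stretches are shown from listed genes past 1.5-fold, with capitals on the fixed letters of the match.
Asns, chr6:7693210-7693252, minus strand: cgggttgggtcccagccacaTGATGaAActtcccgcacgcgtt
Nupr1, chr7:126625553-126625601, minus strand: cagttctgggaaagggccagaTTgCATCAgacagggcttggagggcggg
Vldlr, chr19:27216799-27216847, plus strand: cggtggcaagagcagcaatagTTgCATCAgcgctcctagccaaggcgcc
The match begins 23 bases before the start in Asns, 111 in Nupr1 and 201 in Vldlr. Of the 198 compared genes with such a match, 25 were at least 1.5-fold higher and 12 lower. That is 3.77% of the higher genes with a promoter, 2.54% of the lower ones and 2.56% of all compared genes.

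The largest ratios of the comparison belonged to the metallothioneins Mt1 and Mt2, small cysteine-rich proteins that bind zinc and copper, on neighbouring stretches of chromosome 8 (Mt2 at chr8:94172664-94173568, Mt1 at chr8:94179082-94180327). Mt1 had 524 CPM labelled ASF-KO, 6212 labelled SC35-KO and 14740 in WT, a ratio of SC35-KO to ASF-KO of 11.9 (11.7 to 12.1). Mt2 had 93.4, 1163 and 3834 CPM, a ratio of 12.5 (12.0 to 12.9). Both KO labels were thus below WT, and the one labelled ASF-KO far more so. Slc30a1, the zinc exporter that shares zinc control with the metallothioneins, had 18.0, 39.4 and 54.98 CPM, in the same order of libraries. Slc39a10, a zinc importer, had the reverse order, with 31.9, 9.35 and 5.58 CPM. Slc30a8, which loads zinc into insulin granules, was level between the KO labels at 905 and 939 CPM. The metal response element, to which Mtf1 binds, was searched in a loose form, TGCNCNC, with any base at each N. A match to these letters need not be a metal response element. This short form occurs in 56.1% of all promoters, so a single match tells little. Mt2 held 6 matches in the 300 bases, which 0.301% of promoters reach, and the 5 that lie before the start are capitalised here.
Mt2, chr8:94172375-94172594, plus strand: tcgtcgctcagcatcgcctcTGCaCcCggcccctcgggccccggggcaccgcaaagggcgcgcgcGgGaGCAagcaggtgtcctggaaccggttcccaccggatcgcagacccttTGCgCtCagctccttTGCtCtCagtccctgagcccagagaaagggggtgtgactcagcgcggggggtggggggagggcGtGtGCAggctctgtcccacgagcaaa

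Genes with other roles filled the rest of the 15 highest places chosen by the interval bound nearest to 1. Zfas1 and Snhg3, host transcripts of small nucleolar RNAs, had ratios of 3.37 and 2.39. Defb1, a beta-defensin, had 130 CPM labelled ASF-KO, 407 labelled SC35-KO and 301 in WT. Zdhhc2, a palmitoyltransferase, had 368, 861 and 856 CPM. Slco1a6, an organic anion transporter, had 29.9, 72.8 and 31.3 CPM, and in this gene the ASF-KO value was the one beside WT. H1fx, Shisa2, Smim26, Grina, Cln6 and S100a13 had ratios from 2.44 to 2.87. Nr1d1, a repressor of the circadian clock, had 27.4, 70.4 and 70.04 CPM. Most of these genes also had ratios above 1 in the other cell classes. Zfas1 had ratios of 2.58, 2.95, 1.91 and 1.72 in alpha-, delta-, gamma- and endothelial-rule cells, defined below. Cln6 had 0.956 in endothelial-rule cells, and Nr1d1 was below 1 in several classes. The other genes of this paragraph had ratios above 1 in each class, not set against all genes of that class. The lowest of these was 1.12, for Shisa2 in gamma-rule cells, against 2.66 in beta cells. Levels in these classes are not given here, and some of these ratios may rest on few UMIs. The share that beta cell RNA could bring into these classes was not worked out for these genes.

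The differences were also looked for cell by cell. The chaperone list had a median of 21230 CPM per cell labelled ASF-KO and 10360 per cell labelled SC35-KO, against 9720 in WT. Of cells labelled ASF-KO 99.2% lay above the SC35-KO median. For Mt1 the medians were 302, 5064 and 13660 CPM per cell, and for Nupr1 169, 1354 and 661. In Nupr1 the spread within a library was wide: the middle 50% of cells labelled SC35-KO ran from 401 to 2800 CPM. Single-gene values per cell hold few UMIs and depend on depth. In 6 groups of cells by UMIs per cell, from 1000 to over 40000, the ratio of SC35-KO to ASF-KO ran from 0.468 to 0.524 for the chaperone list, from 0.240 to 0.278 for Hspa5, from 9.83 to 13.8 for Mt1 and from 4.01 to 7.32 for Nupr1. In 6 groups by insulin share the chaperone list ran from 0.464 to 0.549 and Hspa5 from 0.240 to 0.307. The metallothionein ratios varied more, from 7.1 to 16.4 for Mt1 and from 6.53 to 22.3 for Mt2. Nupr1 ran from 3.96 to 6.5. The chaperone sum of cells labelled ASF-KO was itself higher at higher insulin share, from 17970 CPM below 50% insulin to 24030 CPM from 70%, and under the SC35-KO label it went from 9860 to 11390 CPM.

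**Figure D3:**
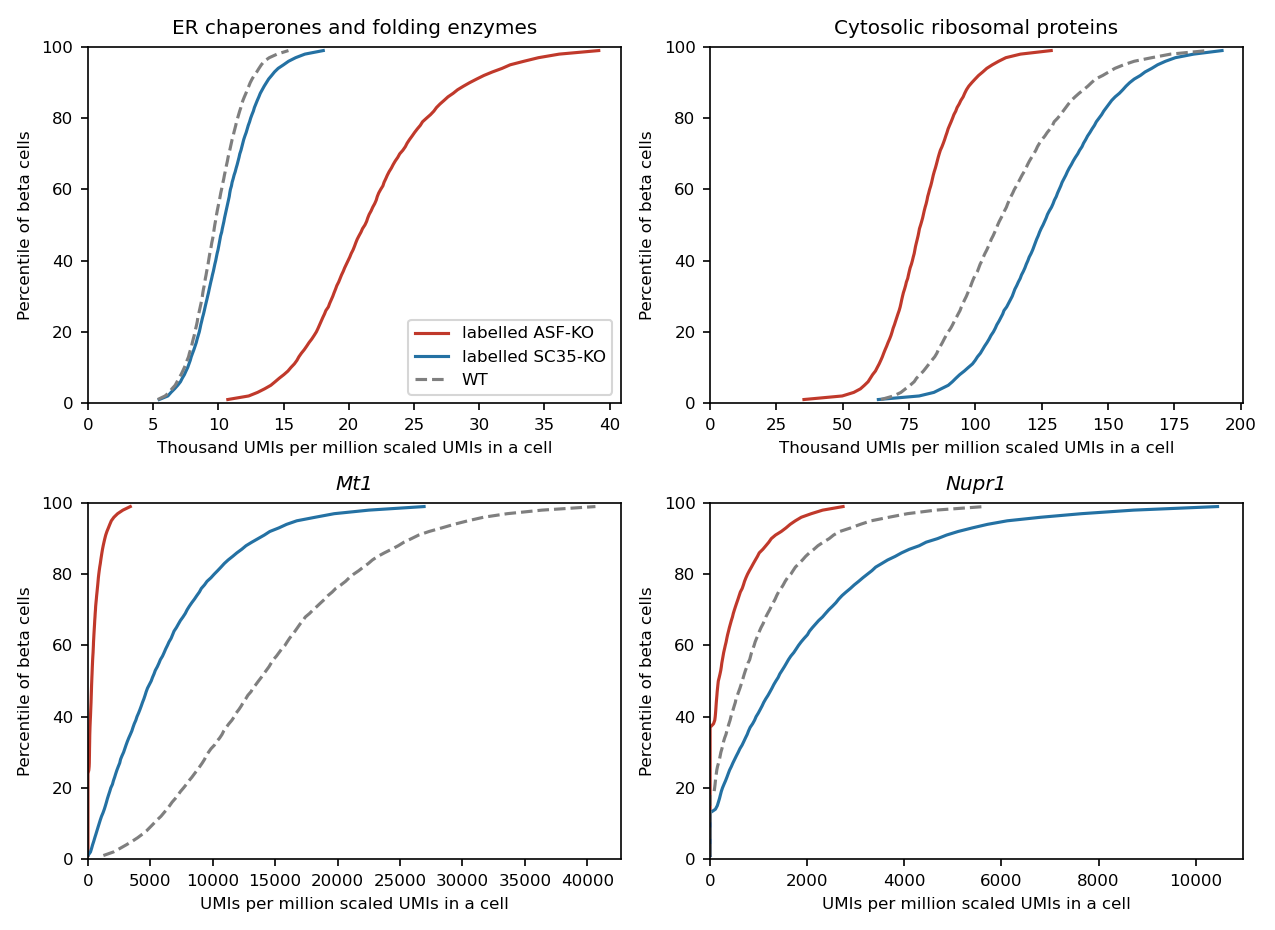
Percentiles 1 to 99 of the level per beta cell (horizontal axis, CPM or 1000 CPM in that cell) for the summed ER chaperone list, the summed ribosomal protein list, Mt1 and Nupr1, with red for cells labelled ASF-KO, blue for SC35-KO and dashed grey for WT. The chaperone curve labelled ASF-KO, with a median of 21230, lies to the right of the other curves, with medians of 10360 and 9720.

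Ribosomal protein genes were higher in cells labelled SC35-KO. Of 79 measured, 44 were at least 1.5-fold higher and none lower, with a median log2 ratio of 0.65. They summed to 80830 CPM labelled ASF-KO, 126500 labelled SC35-KO and 110100 in WT. Rps15a had the largest ratio, 2.69, with 573, 1544 and 1036 CPM. Rps27 had 1195, 3056 and 3670 CPM. Rplp0, a stalk protein, had the smallest ratio of the list, 0.853. Transcript length moved with these values. Among all genes compared, the 131 whose longest GENCODE transcript is under 600 bases had a median ratio of 1.59, and 58.0% of them were at least 1.5-fold higher. The 485 genes of 600 to under 1000 bases had a median ratio of 1.18, and the classes from 1000 bases upward had medians from 1.001 to 1.028. Set against the median of their own length class, 30 of the 79 ribosomal protein genes were still at least 1.5-fold higher, with a median log2 of 0.44. The same step gave -0.91 for the ER chaperones, with 20 lower, and 0.61 for the Atf4 and CHOP targets, with 9 higher.

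**Figure D4:**
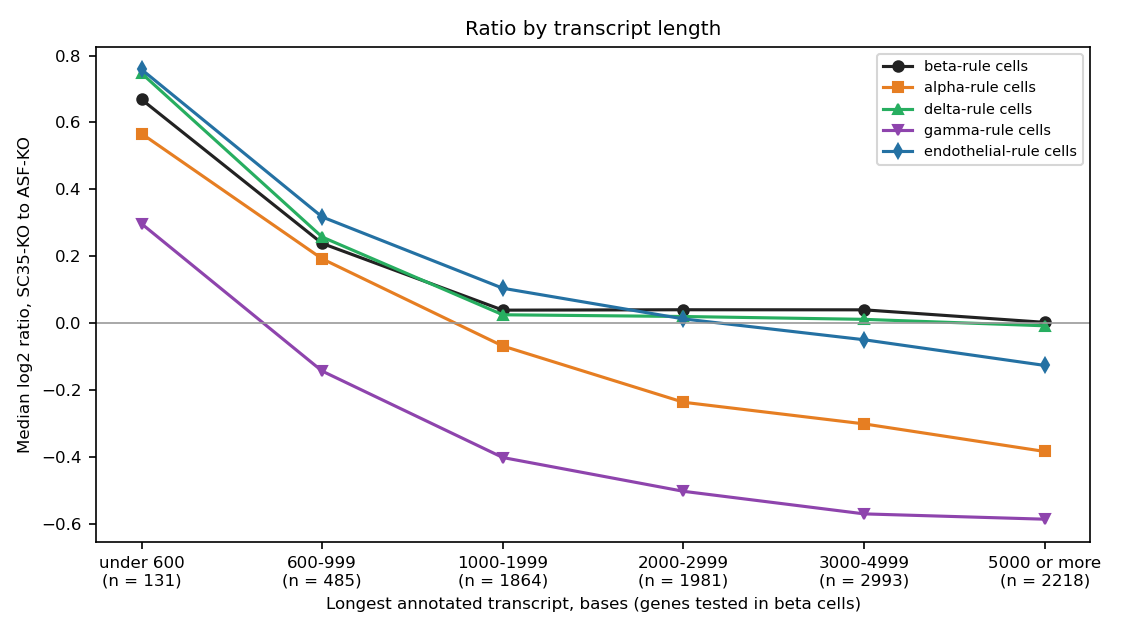
Median log2 ratio of SC35-KO to ASF-KO (vertical axis) for the genes compared in beta cells, in 6 classes of longest annotated transcript (horizontal axis, bases, with the number of genes), drawn for cells of 5 classes. In beta cells the median is 0.67 for transcripts under 600 bases and between 0.00 and 0.04 from 1000 bases, and the first point is the highest in each cell class drawn.

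The respiratory chain genes of the nucleus, most of which are short, held 11 higher and 2 lower of 67, with a median log2 ratio of 0.19. Against their length classes this median was -0.09, with 3 genes past 1.5-fold on each side. Cycs, the cytochrome c gene, was among the lower ones with 279 CPM labelled ASF-KO, 139 labelled SC35-KO and 99.8 in WT. Of the 13 mitochondrially encoded genes, 5 were lower and 1, mt-Nd3, higher at the main scaling. mt-Atp8 had the lowest ratio, 0.249, although mt-Atp6, which lies on the same transcript, was level at 1.01. The genes mt-Nd2, mt-Nd4l, mt-Nd5 and mt-Nd6 had ratios from 0.375 to 0.462, and mt-Co1, mt-Co2 and mt-Co3 from 1.02 to 1.17. The group was split gene by gene rather than shifted as a whole.

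Of 20 measured transcription factors of beta cells, 2 were at least 1.5-fold higher, 1 was lower and 17 lay between, a share close to the 84.8% of all genes that did. Insm1, a repressor that sets endocrine fate, had 174 CPM labelled ASF-KO, 323 labelled SC35-KO and 208 in WT, and Nkx2-2 had 142, 246 and 185 CPM. Pdx1, which activates the insulin gene, had 239, 158 and 162 CPM, a ratio of 0.662 that reached 0.682 with ribosomal genes left out of the scaling. Mafa stood at 750, 518 and 608 CPM, Nkx6-1 at 421, 480 and 543 CPM and Neurod1 at 371, 391 and 549 CPM. Of 16 genes of glucose sensing and maturity none was as much as 1.5-fold higher and 4 were lower. Prlr, the prolactin receptor, had 647 CPM labelled ASF-KO, 366 labelled SC35-KO and 439 in WT. The glucose transporter Slc2a2 had 511, 663 and 956 CPM and Ucn3, a mark of mature beta cells, 589, 548 and 812 CPM. Both of these were below WT under either label. Aldh1a3, a mark of dedifferentiated beta cells, was level between the labels, at 65.03 and 57.06 CPM, and 5.37 CPM in WT. Of 16 genes listed as disallowed in beta cells none reached 10 CPM in either KO library.

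Granule cargo and its processing enzymes were lower in part. Of 11 granins and granule proteins, 5 were at least 1.5-fold lower in cells labelled SC35-KO and none higher, with a median log2 ratio of -0.37. The other endocrine classes, defined below, held a similar difference. Relative to all genes of a class, the list median was -0.42 in beta cells. It was -0.39, -0.48, -0.39 and -0.02 in alpha-, delta-, gamma- and endothelial-rule cells. Chga, chromogranin A, had 16350 CPM labelled ASF-KO, 9140 labelled SC35-KO and 10450 in WT. Scg2, secretogranin 2, had 13900, 8820 and 7573 CPM. Both proinsulin convertases were on this side: Pcsk1 had 790 CPM labelled ASF-KO, 416 labelled SC35-KO and 325 in WT, and Pcsk2 had 8116, 4836 and 7450 CPM. In Pcsk2 the WT value lay nearer to the ASF-KO label. The Pcsk2 ratio, not set against all genes, was 0.596 in beta cells. In alpha-, delta-, gamma- and endothelial-rule cells it was 0.567, 0.646, 0.510 and 0.419. For Pcsk1 these values were 0.527 in beta cells and 0.770, 0.391, 0.281 and 1.17 in the others. The carboxypeptidase Cpe, which trims the convertases' products, had 2645, 3535 and 3540 CPM, inside 1.5-fold. The machinery of exocytosis held 2 lower of 17 genes, Syt5 and Exph5, where 6.13% of all genes were lower. Among 16 ion channel genes of stimulus coupling 2 were higher, Abcc8 and Trpm4, where 9.1% of all genes were. Both counts are small and not far from these shares. Abcc8, the sulfonylurea receptor of the potassium channel that glucose metabolism closes, had 502, 770 and 637 CPM. Its ratio of 1.534 was 1.405 with TMM factors, inside 1.5-fold. Kcnj11, the pore partner of Abcc8, had 57.3, 65.1 and 90.7 CPM.

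Immediate early genes, which turn on within minutes of many stimuli including tissue dissociation, were lower in cells labelled SC35-KO. Of 15 measured, 10 were at least 1.5-fold lower and none higher, with a median log2 ratio of -0.91. Jun had 1107 CPM labelled ASF-KO, 375 labelled SC35-KO and 438 in WT, and Fos 657, 259 and 361 CPM. Of 20 heat shock genes of the cytosol and mitochondria 6 were also lower, among them Hspa1a with 399, 241 and 359 CPM. No antioxidant or thioredoxin gene of 20 passed 1.5-fold in either direction.

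Transcripts of other cell types moved with the comparison as well. All 17 measured acinar genes were lower in beta cells labelled SC35-KO, with a median log2 ratio of -2.46 and sums of 1493 CPM labelled ASF-KO, 270 labelled SC35-KO and 1736 in WT. Clps, the colipase gene, had the lowest ratio, 0.114, and Ctrb1, the chymotrypsinogen gene, 218, 36.2 and 235 CPM. The size of the difference varied much between groups of cells. For the summed list the ratio ran from 0.0275 to 0.516 in the 6 groups by insulin share. By UMIs per cell it ran from 0.0464 to 0.282. The sum labelled ASF-KO was 6348 CPM in cells with 50% to 55% insulin and 1125 CPM in those with 55% to 60%. Cells of other classes, defined below, gave 17 of 17 lower in alpha-, gamma- and endothelial-rule cells and 16 of 17 in delta-rule cells. The share of all genes that were as much lower was 17.1% in alpha-rule, 6.93% in delta-rule, 42.2% in gamma-rule and 11.5% in endothelial-rule cells, and 3%, 9.79%, 1.82% and 13.1% were higher. Among hormones of other islet cells Ppy had 1094, 2309 and 1833 CPM, Sst 987, 1803 and 885 CPM and Gcg 2224, 3348 and 2187 CPM in beta cells. These 3 genes were used to choose the cells, so their values are a description, and the Sst ratio of 1.83 was 2.84 in cells with 10000 to 40000 UMIs. The 4 hemoglobin genes summed to 143, 91.4 and 8.08 CPM. Macrophage, T and B cell, fibroblast and endothelial markers summed to at most 255 CPM each in any of the 3 libraries. In cells with under 0.5% exocrine UMIs the counts were 883 higher and 596 lower. Gm42418, a locus that overlaps ribosomal RNA sequence, was the most abundant single gene of this kind, with 29060 CPM labelled ASF-KO, 10270 labelled SC35-KO and 20110 in WT, and was lower in each other cell class by ratios of 0.246 to 0.355. The part of these transcripts in other differences was not tested.

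The same comparison in other cells of the same libraries set the beta cell values beside those of alpha-, delta-, gamma- and endothelial-rule cells. Alpha, delta and gamma cells were taken by at least 5% of UMIs from Gcg, Sst or Ppy with insulin below 25%, and endothelial cells by at least 3 of 8 vascular genes. All genes had a median log2 ratio of -0.24 in alpha-rule cells, 0.03 in delta-rule, -0.51 in gamma-rule and 0.00 in endothelial-rule cells. The list medians that follow are therefore given relative to these. Ratios of single genes are not, unless they are called relative. The ER chaperone list had a relative median of -0.91 in beta cells, -0.11 in alpha-rule, -0.14 in delta-rule, -0.27 in gamma-rule and -0.21 in endothelial-rule cells. Of its 28 genes, 27 had a lower relative ratio in beta cells than in alpha-rule cells, and the same count held against delta- and against gamma-rule cells. Of the 27 measured in endothelial-rule cells 25 did. Hspa5 was lower in every class, with ratios of 0.484, 0.572, 0.403 and 0.534 against 0.259 in beta cells. Genes of vesicle traffic had a relative median of -0.64 in beta cells and from -0.17 to 0.04 elsewhere. With 1 library a side no test of the difference between cell classes was possible.

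**Figure D5:**
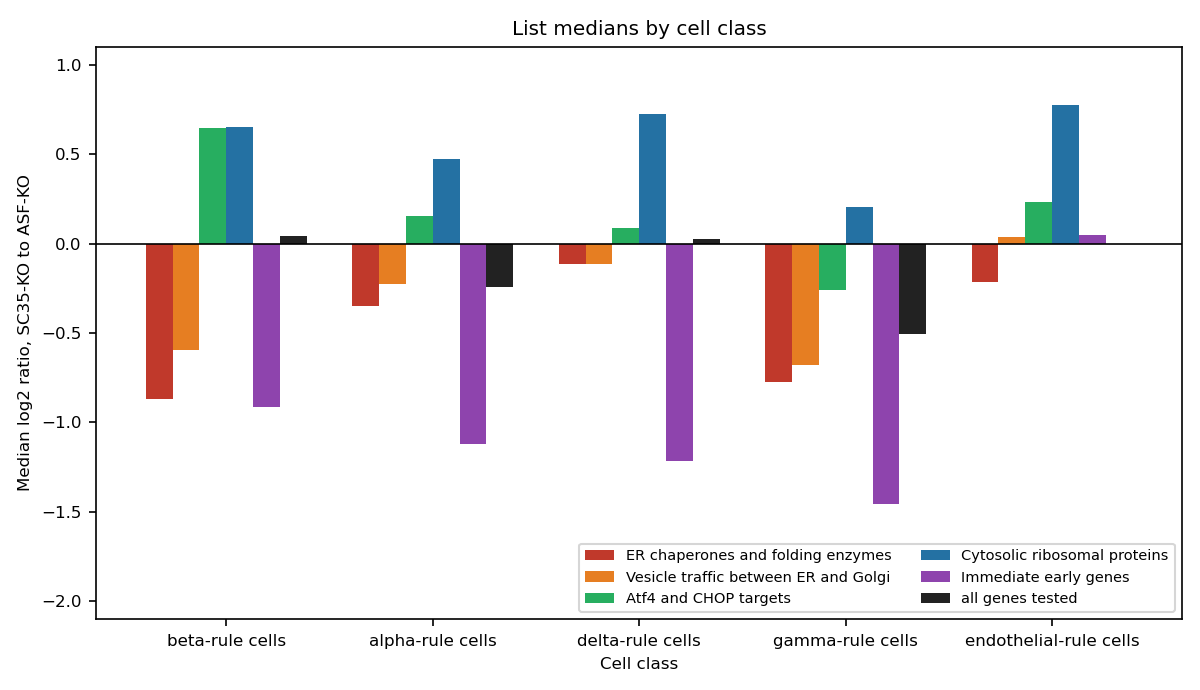
Median log2 ratio of SC35-KO to ASF-KO (vertical axis) for 5 gene lists and for all genes compared (black), in beta cells and in 4 other classes of the same libraries. The ER chaperone bars (red) are at -0.87 in beta cells and -0.35, -0.11, -0.77 and -0.21 in alpha-, delta-, gamma- and endothelial-rule cells, where all genes are at -0.24, 0.03, -0.51 and 0.00.

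The ribosomal protein list had a relative median of 0.60 in beta cells and from 0.70 to 0.78 in the other 4 classes. Mt1 was higher in cells labelled SC35-KO in each class, with ratios of 7.48, 4.56, 3.90 and 7.72 in alpha-, delta-, gamma- and endothelial-rule cells. In cells labelled SC35-KO its level was 522 CPM in alpha-rule cells against 6212 in beta cells. Insulin transcripts, which free RNA or mixed droplets can bring into cells of other types, stood in alpha-rule cells labelled SC35-KO at 1.14% of their beta cell level. The same share of the beta cell level is 71.1 CPM for Mt1. In endothelial-rule cells the insulin share was 2.34%, which comes to 146 CPM of Mt1, beside a measured 249 CPM. For Nupr1 the share of 1.14% comes to 23.2 CPM in alpha-rule cells, beside a measured 31.2 CPM, so its ratios outside beta cells are not read as a difference in those cells. The Atf4 and CHOP list had a relative median of 0.60 in beta cells and from 0.06 to 0.40 in the others, where fewer of its genes were measured. Among genes measured in both classes, 9 of 13 had a lower relative ratio in beta cells than in alpha-rule cells. Against endothelial-rule cells 6 of 11 did. A higher one in beta cells was found for 11 of 14 against delta-rule and 8 of 13 against gamma-rule cells. The larger beta cell median was thus not shared gene by gene against every class. Immediate early genes were at -0.96 in beta cells, from -1.24 to -0.88 in the other endocrine classes and at 0.05 in endothelial-rule cells.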

How the data were processed

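Single-cell 3' RNA counts of 3 islet libraries, 1 each of WT, ASF-KO and SC35-KO, were used. The authors deposited raw UMI counts, 32285 genes by barcode. Per the submitters' processing notes, the genome build was mm10 and the tools included STAR, Seurat and Cell Ranger 5.0.0, with no role given. Counts were read with scanpy 1.11.5 and summed over beta cells. Totals left out Ins1, Ins2, Iapp and mitochondrially encoded genes. Genes with at least 10 CPM in either library were compared, and 1.5-fold marked a difference. Ratio intervals are exact conditional binomial intervals at 95%, for counting error only. With 1 library a group no p-value was computed and no replicate check exists. The calculation was tested on simulated data. Named genes were the 15 highest and 15 lowest by the interval bound nearest to 1, with at least 50 CPM and 20 UMIs, leaving out mitochondrial, sex-linked, ribosomal protein and unnamed genes and genes over 10 times higher in another cell class. From each list the highest, the lowest and the 2 most abundant genes were added to these, as were Srsf1 and Srsf2, and other listed genes the text names were chosen after their values were seen. Scrublet marked 65 beta cells labelled ASF-KO and 151 labelled SC35-KO, which were kept in the main counts. Gene positions and lengths are from GENCODE M21 (GRCm38), and promoters from RefSeq (GRCm38.p6). Alternatives changed the scaling, the filters on genes and cells, the depth and the fold. The members and lists were chosen with earlier results of these data known. The result for 1 gene is not reported here.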

Additional observations from a re-analysis of the deposited data

Results flagged for a closer look

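Among the genes named by the rule, 3 had intervals of the ratio of SC35-KO to ASF-KO wholly beyond 1.5-fold in beta cells and wholly beyond it in the opposite direction in another cell class of the same libraries. With 1 library a side none of these differences was tested. Nr1d1, a clock repressor, had a ratio of 2.57 in beta cells, 0.315 (95% interval 0.252 to 0.390) in alpha-rule cells and 0.368 (0.282 to 0.475) in endothelial-rule cells. In delta-rule cells its ratio was 2.68. Dbp, another clock gene, which is outside the rule and was chosen after its values were seen, had 1.96 in beta cells and 0.0998 in endothelial-rule cells. Rgs4, a brake on G-protein signalling, had 2.85 in beta cells and 0.571 (0.529 to 0.616) in alpha-rule cells. Hba-a1, a hemoglobin gene of red blood cells, had 0.55 in beta cells and 3.49 (2.98 to 4.08) in endothelial-rule cells, at 164 CPM labelled ASF-KO and 572 labelled SC35-KO. The beta cell value of Hba-a1 was 0.346 with each cell thinned to 5000 UMIs and 0.830, inside 1.5-fold, in cells with 55% to 70% insulin.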

How the results depend on the processing

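With 1 library a group, no replicate could be left out. No paired analysis was possible because each genotype had 1 library. The main counts were 881 genes higher and 593 lower. They became 557 and 963 with TMM factors, 4887 and 2457 with no level filter beyond 1 UMI, 320 and 374 from 50 CPM, and 221 and 126 at 2-fold. Under the other alternatives they stayed within 1.5 times of the main counts. The cause of these changes was not tested, apart from the fewer or more genes compared. Of 94 named genes past 1.5-fold, none changed direction under 17 alternatives, and 28 of 1574 values, in 13 genes, fell inside 1.5-fold. Part of this was fixed in advance. Alternatives that changed only which genes were compared left every ratio as it was. Those that changed the scaling moved all log2 ratios by the same amount, the most with TMM factors, by -0.13. Neither kind could reverse a gene past 1.5-fold, so only changes in cells, depth or the weight of cells bore on direction. The ER chaperone list had 18 to 22 genes lower in these settings. The ribosomal protein list had 35 of 79 higher with TMM factors and 14 of the 32 with transcripts of 1000 bases or more, a setting chosen after seeing the data, as were insulin of 55% to 70% and totals without ribosomal genes. With insulin of 55% to 70%, Clps moved from 0.114 to 0.218. Depth limits genes of few UMIs per cell: Ube2c, at 3.40 CPM labelled ASF-KO, moved from 3.97 to 7.04 in cells with 10000 to 40000 UMIs.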
